A study of Drosophila melanogaster with 8 samples.

Results

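CAGE, a method that sequences the capped starts of RNAs, was used to locate transcription start sites in Drosophila S2 cells, an embryonic cell line with macrophage-like features. The start sites described here lie on the right arm of chromosome 3 (3R) from position 400000 on, had moderate levels, and were higher in every library labelled as exosome knockdown than in every library labelled as control. The rule was as follows. Each strand was treated on its own, and a position counted if some library held at least 2 tags there. Positions no more than 20 bp apart were joined into tag clusters, called start sites below, after which those with under 0.1 of the summit's pooled tags were removed and the remainder joined anew. Start sites of 1 to under 10 TPM (a library's tags at the site per 1000000 of all its tags) on average over the 8 libraries were kept when the mean of the libraries labelled exosome knockdown was at least 2 times that of the libraries labelled control, with no overlap between the groups. Of 688364 start sites in all, 3618 on the arm had moderate levels, and 424 of these met the rule, which is 11.7% of them. The opposite criteria, at least 2 times higher in the libraries labelled control with no overlap, were met by 922 (25.5%).

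All 8 libraries came from S2 cells cultured alike, treated on 2 occasions with 40 µg of double-stranded RNA (dsRNA) and harvested 4 days after the first treatment. The 4 libraries labelled exosome knockdown are described as a double knockdown of Dis3 and Rrp6, and the 4 libraries labelled control as treated with dsRNA against GFP, a sequence that flies lack. The deposited files carry names that run the other way (GFP for the libraries labelled exosome knockdown), and for every library the total implied by the study's own expression table also places the libraries labelled exosome knockdown under its GFP columns. The file names and the study's table thus both go against the labels. The study also kept more tag clusters after knockdown than in control. Here the libraries labelled control held more positions with tags (1991067 to 2526327) than those labelled exosome knockdown (1528673 to 1868856). Which of the 2 is right was not tested further. The groups are therefore called by their labels throughout. By the labels these start sites were higher with the exosome depleted, and by the file names they were lower, so a description of them as lowered by exosome loss holds only if the labels are exchanged. A check on the start sites of Rrp6 and Dis3 was not made, because the annotation used here is on another genome build than the files (dm3). For the same reason no gene is named, and positions are in dm3.

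The exosome is a multi-subunit complex that degrades RNA from its tail end. Rrp6 and Dis3 are its catalytic subunits, with Rrp6 mainly nuclear. Its substrates include the short-lived RNAs made upstream and antisense of promoters and at enhancers, so that depletion of the complex is commonly used to make such RNAs visible, whereas most stable messenger RNAs depend on it little. CAGE counts RNA and not initiation. In these total RNA samples a change in transcription cannot be told apart from a change in RNA stability.

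Library totals ranged from 33565925 to 43903483 tags in the libraries labelled exosome knockdown and from 36806292 to 46388382 in those labelled control. At the lower end of the level range, 1 TPM thus stands for 33.6 to 46.4 tags in a library. Replicates differed by more than counting noise, with a chi-square per degree of freedom between 6.38 and 20.7 for the pairs within a group. The study's text calls the replicates biological, and the labels do not say whether each was a separate culture. Libraries were pooled 4 to a sequencing lane without the pool of each library being given. If the pools followed the groups, lane and group cannot be told apart.

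The 424 start sites had a median level of 3.16 TPM in the libraries labelled exosome knockdown and 0.986 TPM in those labelled control (medians of the group means). In the 4 libraries labelled exosome knockdown the median start site stood at 3.18, 2.99, 3.35 and 3.17 TPM, and in the 4 labelled control at 0.967, 0.946, 0.862 and 1.20 TPM. The medians of the libraries within a group lay close together, and the rule itself fixed the gap between the groups. Replicate 3 labelled exosome knockdown was the highest of its group at 172 of the 424 start sites, and replicate 4 labelled control the highest of its group at 188. Replicate 3 labelled control was the lowest of its group at 169. When each library labelled exosome knockdown was set against the library labelled control of the same number, the median log2 ratio was 1.59, 1.58, 1.85 and 1.34. The pair of replicates 3 was therefore the farthest apart and that of replicates 4 the closest.

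**Figure D1:**
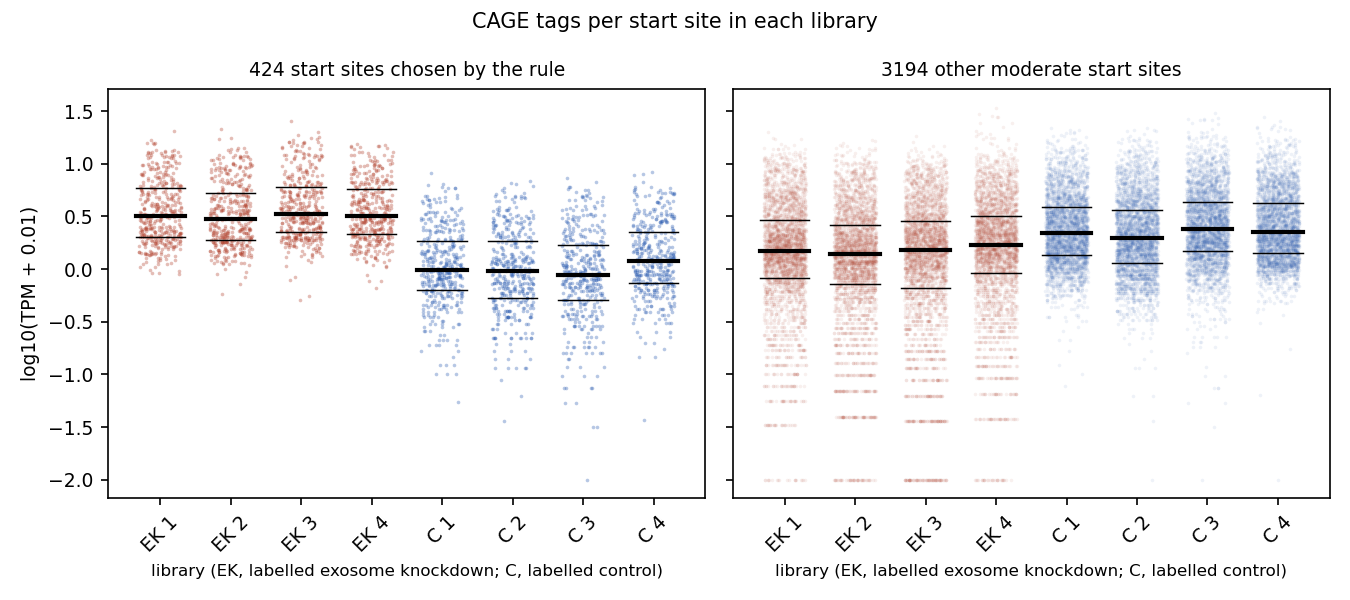
Levels in each library as log10(TPM + 0.01), for the 424 start sites chosen by the rule (left) and the 3194 other moderate start sites of the arm (right). EK, libraries labelled exosome knockdown; C, libraries labelled control; each point is a start site, thick lines are medians and thin lines quartiles. The chosen sites have medians of 2.99 to 3.35 TPM in EK libraries and 0.862 to 1.20 TPM in C libraries, a gap that the rule fixed.

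Across the 424 start sites the ratio of group means had a median of 2.83, with quartiles of 2.31 and 4.13, so most sites lay not far above the limit of 2 that the rule set. A ratio of at least 4 was reached by 114 start sites and a ratio of at least 8 by 32. The highest was 83.8. As the rule used these values, they are a description only. The edgeR quasi-likelihood fit over 23325 start sites of at least 1 TPM in the genome called all 424 higher at an adjusted p under 0.05, where 23.2% of the tested start sites were called higher and 29.5% lower. The rule favoured such calls without fixing them, so they are no separate support. Another 93 moderate start sites of the arm had a ratio of at least 2 but overlapping groups, and 249 had groups that did not overlap but a ratio under 2.

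**Figure D2:**
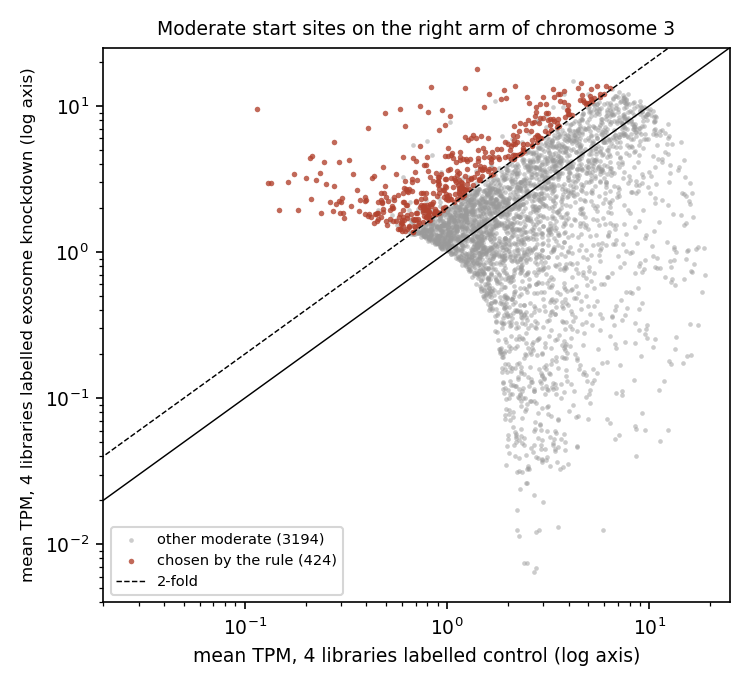
Mean TPM in the 4 libraries labelled exosome knockdown against mean TPM in the 4 libraries labelled control, both on log axes, for the 424 chosen and the 3194 other moderate start sites of the arm. The solid line marks equal means and the dashed line a 2-fold difference, and 6 other sites with means under 0.004 TPM in the libraries labelled exosome knockdown lie below the plot. The chosen sites lie above the dashed line with a median ratio of 2.83, and other sites above it are those whose groups overlapped.

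The thresholds separated start sites of nearly equal values. At the limit on the ratio, the plus-strand site at 23776853-23776896 (ratio 2.003) was taken and that at 18189126-18189128 (ratio 1.993) was not. At the limit on the level, the plus-strand site at 27399005-27399026 was taken with 1.002 TPM, and the minus-strand site at 1295993-1296182 was left out with 0.9992 TPM. At the upper limit the minus-strand site at 24964262-24964310 (9.90 TPM) was taken and the plus-strand site at 16940571-16940573 (10.04 TPM) was left out. At the limit on overlap, the lowest library labelled exosome knockdown of the plus-strand site at 9858515 stood at 5.601 TPM and its highest library labelled control at 5.597 TPM. For the minus-strand site at 22696870-22696946, the values were 4.231 and 4.238 TPM, and it was left out although its ratio was 3.36.

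The start site with the largest ratio was a single position on the minus strand at 9371105. It carried 6.70, 9.30, 18.7 and 3.61 TPM in the libraries labelled exosome knockdown and 0.112, 0.210, 0.108 and 0.0272 TPM in those labelled control. The latter values stand for 5, 8, 5 and 1 tags. The groups were far apart, but the libraries labelled exosome knockdown spread over a 5.20-fold range, from 3.61 in replicate 4 to 18.7 in replicate 3.

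The next largest ratios included 2 neighbouring start sites on the minus strand, 18273222-18273227 and 18273274-18273288 with summits 64 bp apart. The first had 5.49, 4.20, 4.68 and 3.83 TPM against 0.202, 0.184, 0.0647 and 0.407 TPM, a ratio of 21.2. The second had 4.05, 3.07, 2.73 and 2.10 TPM against 0.202, 0.105, 0.0216 and 0.190 TPM, a ratio of 23.0. In both, replicate 1 was the highest library labelled exosome knockdown and replicate 3 the lowest library labelled control, and sites this close cannot be counted as separate observations.

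At 2934138-2934143 on the minus strand the levels were 2.66, 4.80, 0.780 and 3.69 TPM against 0.0900, 0.131, 0.0216 and 0.299 TPM, a ratio of 22.0, with replicate 3 the lowest library in both groups. The minus-strand site at 21702285-21702315 had 3.37, 4.23, 6.29 and 3.80 TPM against 0.180, 0.105, 0.0647 and 0.489 TPM, a ratio of 21.1. The plus-strand site at 16841669-16841676 had 1.89, 3.52, 2.76 and 14.3 TPM against 0.157, 0.263, 0.173 and 0.516 TPM, a ratio of 20.3. Its mean rested on replicate 4, which was also the highest library labelled control there.

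**Figure D3:**
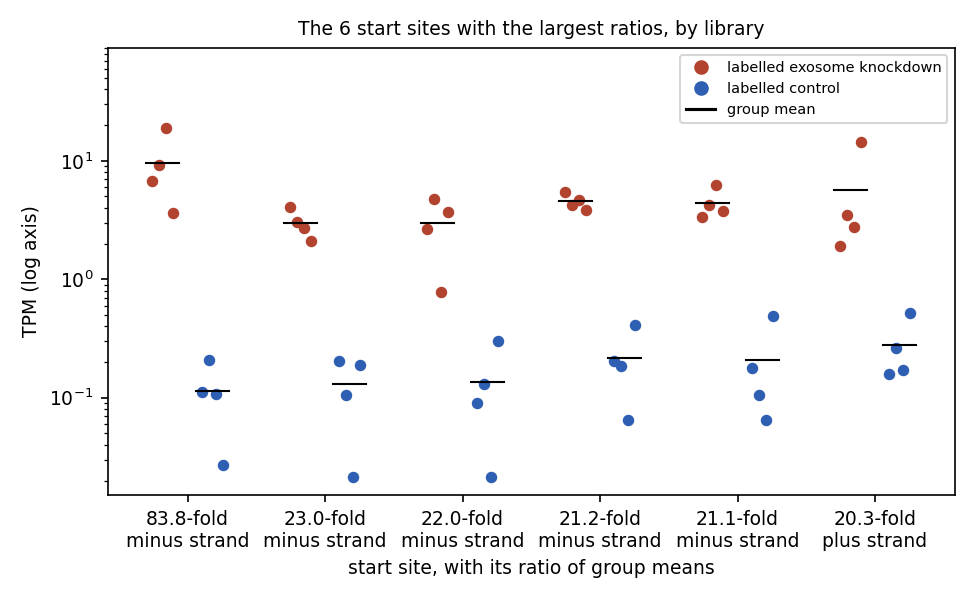
TPM (log axis) of the 6 start sites with the largest ratios of group means in each of the 8 libraries, ordered by ratio from 83.8 to 20.3. Points are libraries (red, labelled exosome knockdown; blue, labelled control) and black lines are group means; no point of the upper group reaches the lower one, and the sixth site has 1 library at 14.3 TPM and the other 3 between 1.89 and 3.52 TPM.

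Of the 4 start sites with the highest levels, 3 had ratios between 2.08 and 2.49. The minus-strand site at 24964262-24964310 carried 15.8, 13.0, 15.6 and 10.2 TPM against 6.03, 6.80, 6.66 and 5.05 TPM, a ratio of 2.23. A single position at 8291025 on the minus strand carried 13.4, 11.8, 18.1 and 11.8 TPM against 5.89, 5.44, 5.58 and 5.27 TPM, a ratio of 2.49. Another, at 1296324 on the same strand, carried 16.8, 9.77, 17.5 and 9.10 TPM against 8.12, 6.59, 5.24 and 5.60 TPM. The exception was the single plus-strand position at 1639329, with 20.4, 21.2, 25.3 and 4.56 TPM against 1.30, 0.972, 1.16 and 2.17 TPM and a ratio of 12.7. There replicate 4 came closest to the other group from both sides, at 4.56 and 2.17 TPM.

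Replicate 4 also carried the widest spread within a group. At the minus-strand position 11289243 the libraries labelled exosome knockdown had 1.84, 0.566, 0.494 and 9.92 TPM, and those labelled control 0.225, 0.158, 0.0647 and 0.353 TPM. At 24710145-24710173 on the plus strand they had 1.73, 0.715, 0.546 and 4.45 TPM against 0.202, 0.105, 0.108 and 0.543 TPM. In these, as at 16841669-16841676, replicate 4 was the highest library in both groups. Over all 424 start sites the median coefficient of variation between replicates was 23.3% in the libraries labelled exosome knockdown and 30.3% in those labelled control. Over the 3194 other moderate start sites it was 29.6% and 28.5%. The criterion of no overlap favours sites with a small spread, so these values are a description only. Levels also differed, with medians in the libraries labelled control of 0.986 TPM for the chosen sites and 2.28 TPM for the others.

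The start sites were divided about evenly between the strands, with 199 on the plus and 225 on the minus strand. Their widths had a median of 20 bp, with quartiles of 3 and 48.25 bp and a maximum of 272 bp, and the median width of the other moderate start sites was also 20 bp. A single position made up 78 of them (18.4%, against 17.3% of the others). Promoters of flies are often described as focused, with initiation at 1 position, or dispersed over a wider stretch. The rule did not use the shape of a start site, which was therefore tested between the groups. The share of tags at the dominant position can move with the number of tags. The 78 single positions cannot differ between the groups in the share or the centre of their tags. The borders of all sites were drawn on tags of both groups together, which limits the shifts that can be seen within them.

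The share of tags at the dominant position, averaged over the 424 start sites, was 49.5%, 47.8%, 49.3% and 50.1% in the libraries labelled exosome knockdown and 49.5%, 50.3%, 48.9% and 48.7% in those labelled control. The groups overlapped. Their means were 49.2% ± 1.00 (SD, n = 4) and 49.4% ± 0.693 (SD, n = 4), a difference of -0.18 percentage points (exact permutation test, two-sided, p = 0.80, where 4 libraries against 4 can reach 0.0286). Over the 3194 other moderate start sites the share was higher in all 4 libraries labelled exosome knockdown, at 49.2% ± 0.716 against 47.7% ± 0.166 (SD, n = 4, exact permutation p = 0.0286, the smallest this design can give), but the difference shrank to 0.34 percentage points (exact permutation p = 0.20) when the dominant position was taken from the pooled tags and to 0.42 for the 953 sites with at least 50 tags in every library (exact permutation p = 0.229). With the replicate numbers as pairs the same 1.46 points gave p = 0.13 (exact permutation test), the smallest that 4 pairs allow. Whether the chosen and the other start sites differ in this was not tested. The centre of the tags relative to the dominant position had a median of 0 bp in every library, and its mean over the start sites was 0.414 ± 0.140 bp downstream in the libraries labelled exosome knockdown and 0.260 ± 0.219 bp in those labelled control (SD, n = 4, exact permutation p = 0.257). No shift of the start within these sites was detectable at this spread.

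In 348 of the 424 start sites (82.1%) both groups had the same dominant position, against 77.7% of the other moderate start sites. The exceptions among those named here included both narrow and dispersed sites. The widest member, 24162855-24163126 on the plus strand, had 5.06, 5.81, 6.84 and 9.26 TPM against 2.25, 2.52, 2.29 and 3.37 TPM. Its tags centred 71.7 bp downstream of the dominant position in the libraries labelled exosome knockdown and 47.6 bp in those labelled control, the largest difference among the 106 start sites with at least 50 tags in every library. At 2903158-2903271 on the minus strand the centre lay at -27.7 bp against -20.1 bp, and at 25570972-25571059 on the same strand at -18.4 bp against -13.1 bp, where negative values are upstream. These were picked for their size and were not tested. The most dispersed of all were 18947126-18947317 on the plus strand, where the dominant position took 4.06% of the tags, and 11676910-11677032 on the minus strand, where it took 4.15%.

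Most of the start sites had company. Within 500 bp, 337 of the 424 had another start site of at least 1 TPM and 87 (20.5%) had none, against 21.2% of the other moderate start sites. A same-strand neighbour lay upstream of 49.5% and downstream of 43.4% (48.9% and 42.3% of the others). An opposite-strand start site upstream, the divergent arrangement found at many promoters and enhancers, was present at 27.4% (29.3% of the others), and one downstream, facing the start site, at 21.2% (27.5% of the others). Facing start sites were also less frequent at the chosen sites within 250 bp (12.0% against 17.3%) and within 1000 bp (29.5% against 38.2%). Apart from these, the surroundings at this level looked much like those of other moderate start sites, and the shares were not tested. The ratios of the neighbours come from the contrast that the rule used and are given as a description. Neighbours on the same strand had a median log2 ratio of 1.09 upstream (283 neighbours) and 1.16 downstream (244), and those on the opposite strand 0.69 upstream (150) and 1.08 downstream (125). Around the other moderate start sites, which include those that met the opposite criteria, these medians lay between -0.10 and 0.01. Around the 922 that met the opposite criteria they were -1.83 upstream and -1.95 downstream on the same strand. On the opposite strand they were -1.66 and -1.84 there, so neighbours with like ratios were not particular to the chosen start sites.

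The same criteria of ratio and no overlap were met by 46 of the 150 divergent neighbours, and the opposite ones by 10. On the same strand 144 of the 283 upstream and 128 of the 244 downstream neighbours met them, where 12.0% of all start sites of at least 1 TPM on the arm did. Chosen start sites count among each other's neighbours here. Around the 922 sites that met the opposite criteria, 324 of 460 upstream and 282 of 394 downstream neighbours on the same strand met the opposite criteria too. Strong partners varied. The strongest divergent partner, the plus-strand position 2912324, had 3942 ± 1602 against 1082 ± 609 TPM (SD, n = 4), a ratio of 3.64. The start site opposite it, 2912096-2912150 on the minus strand, had 5.67, 5.87, 6.27 and 4.67 TPM against 2.54, 2.18, 1.29 and 2.83 TPM, a ratio of 2.54, so that both met the criteria of ratio and no overlap. The minus-strand position 16134964 had 1.98, 1.91, 2.73 and 1.58 TPM against 0.337, 0.946, 0.453 and 0.407 TPM. Its divergent partner on the plus strand, at 16135264-16135268, had 539, 508, 488 and 477 TPM against 628, 709, 828 and 571 TPM, so it was lower in every library labelled exosome knockdown. At 25570972-25571059 on the minus strand the levels were 12.9, 10.9, 12.3 and 12.0 TPM against 3.85, 3.57, 3.32 and 3.72 TPM, a ratio of 3.33. Its plus-strand partner at 25571051-25571082 had 359 ± 32.1 TPM against 215 ± 35.7 TPM (SD, n = 4), a smaller ratio of 1.67. The 2 clusters share 9 bp on opposite strands, and the tags of each strand were counted apart.

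A stronger start site on the same strand within 500 bp accompanied 236 of the 424. In 128 of these the strongest such neighbour met the same criteria, in 13 its mean was lower in the libraries labelled exosome knockdown, and in 1 it met the opposite criteria. Where the neighbour had at least 10 TPM (130 start sites) it met the criteria in 54. The chosen start site held a median of 17.9%, 17.0%, 18.4% and 17.3% of the tags of the pair in the libraries labelled exosome knockdown and 14.9%, 15.0%, 13.8% and 14.9% in those labelled control. The groups did not overlap, and the choice of the sites for their ratio favours this direction.

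Weak sites beside very strong promoters illustrate this. The minus-strand position 27044986 had 2.05, 1.79, 2.78 and 2.62 TPM against 0.877, 1.08, 0.754 and 1.25 TPM. It lay 294 bp downstream of a start site at 27045280-27045294 with 1256 ± 215 against 665 ± 34.3 TPM (SD, n = 4), so that both were higher, with ratios of 2.33 and 1.89. The position 16986373 had 1.41, 1.34, 2.05 and 2.16 TPM against 0.585, 0.131, 0.280 and 0.897 TPM. Its neighbour at 16986811-16986812 had 1390 ± 100.3 against 482 ± 237 TPM, with ratios of 3.68 and 2.88. In the third case, 5226602-5226603, the levels were 5.58, 9.24, 7.67 and 8.03 TPM against 3.82, 3.49, 2.35 and 4.35 TPM, and the neighbour at 5226939-5226943 had 1226 ± 461 against 594 ± 267 TPM, with ratios of 2.18 and 2.06. The weak sites carried 0.172%, 0.118% and 0.612% of the tags of their neighbours.

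Many of the start sites lay near each other along the arm, and loci of the other moderate start sites were not counted. Moderate start sites in general had close neighbours, as only 20.5% of the chosen and 21.2% of the others had none within 500 bp. When those within 5000 bp of each other on either strand were joined, the 424 formed 216 loci, a distance chosen after the data were seen. Of these, 140 held a single one. The other 76 held 284 start sites (67.0%), and 17 loci of at least 5 held 123 (29.0%). Both strands were present in 38 loci, and in 41 the strongest start site was not itself a member of the list. Along the arm the share of moderate start sites that met the rule was lowest between 0 and 1 Mb, which begins at 400000, with 1 of 62. It was highest between 2 and 3 Mb, with 20 of 66 (30.3%), and between 22 and 23 Mb, with 14 of 51 (27.5%). These 2 peaks rested on few loci. Of the 20, 14 lay in 1 locus and 4 in another, and of the 14, 8 lay in 1 locus and 4 in another. Members of 1 locus are not separate observations, as they may come from the same transcription unit.

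The locus with the most, at 2911282-2913779, held 14 start sites, 8 on the plus and 6 on the minus strand. Its strongest start site, a single plus-strand position at 2912324 that lies above the level limit, had 4949, 5658, 2466 and 2694 TPM against 485, 643, 1486 and 1713 TPM. The groups did not overlap there, yet replicates 1 and 2 differed 10.2-fold and 8.81-fold between the groups and replicates 3 and 4 by 1.66-fold and 1.57-fold. The 8 plus-strand sites of the list followed another pattern among replicates. At 2913018, downstream of that position, the levels were 12.1, 11.5, 14.5 and 14.8 TPM against 3.44, 4.31, 4.83 and 5.14 TPM. At 2913440-2913458 they were 6.90, 6.91, 6.29 and 6.70 TPM against 1.87, 2.63, 2.35 and 2.23 TPM. In these the libraries of a group differed little, unlike at the strongest position upstream.

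Of the 22 start sites of at least 1 TPM in that locus, 19 met the criteria and none the opposite ones. The exceptions were on the minus strand, at 2911637, 2911736-2911751 and 2911773-2911816, the last with 106 ± 6.21 against 127 ± 4.70 TPM (SD, n = 4). Summed over the locus, plus-strand tags were at 6448, 7309, 3679.7 and 3798 TPM against 845, 1005, 1977 and 2307 TPM. Minus-strand tags were at 186, 182, 182 and 173 TPM against 164, 166, 172 and 173 TPM. The sums of the minus strand had means of 181 and 169 TPM, a ratio of 1.07, while 6 of its weaker start sites had ratios between 2.50 and 6.16. The highest of these ratios belonged to 2911282-2911323, with 4.24, 3.04, 3.98 and 2.49 TPM against 0.607, 0.473, 0.388 and 0.761 TPM. Within the 20 kb window from 2901092, which held the most members of any such window on the arm, a further 4 start sites lay at 2901092-2903403, among them 2903158-2903271 with 11.8, 13.8, 15.9 and 10.7 TPM against 5.04, 4.96, 2.39 and 8.31 TPM.

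The second locus, at 27569724-27576770, held 12 start sites around a minus-strand start site at 27571644-27571648 with 1596 ± 409 against 771 ± 43.9 TPM (SD, n = 4). Its largest ratio belonged to 27574422-27574488 on the plus strand, with 13.6 ± 3.57 against 2.17 ± 0.322 TPM. Of 21 start sites of at least 1 TPM there, 14 met the criteria and none the opposite ones. The third locus, at 26610504-26613261, had no strong start site. All 9 of its start sites of at least 1 TPM were members, 8 of them on the minus strand, and the highest, at 26612045-26612095, had 2.94 ± 0.295 against 1.26 ± 0.297 TPM. Minus-strand tags of the locus summed to 28.2, 28.5, 31.7 and 30.0 TPM against 10.6, 14.4, 13.0 and 11.4 TPM, with plus-strand tags at 18.2, 15.9, 21.0 and 16.3 TPM against 6.84, 8.04, 10.8 and 9.62 TPM. The whole of this locus was thus higher on both strands. In the locus at 10969398-10972710 all 7 members lay on the minus strand, where tags summed to 63.7, 59.2, 53.0 and 62.2 TPM against 14.6, 16.9, 15.2 and 16.7 TPM. On the other strand they came to between 1.61 and 2.13 TPM against 0.647 to 0.922 TPM.

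**Figure D4:**
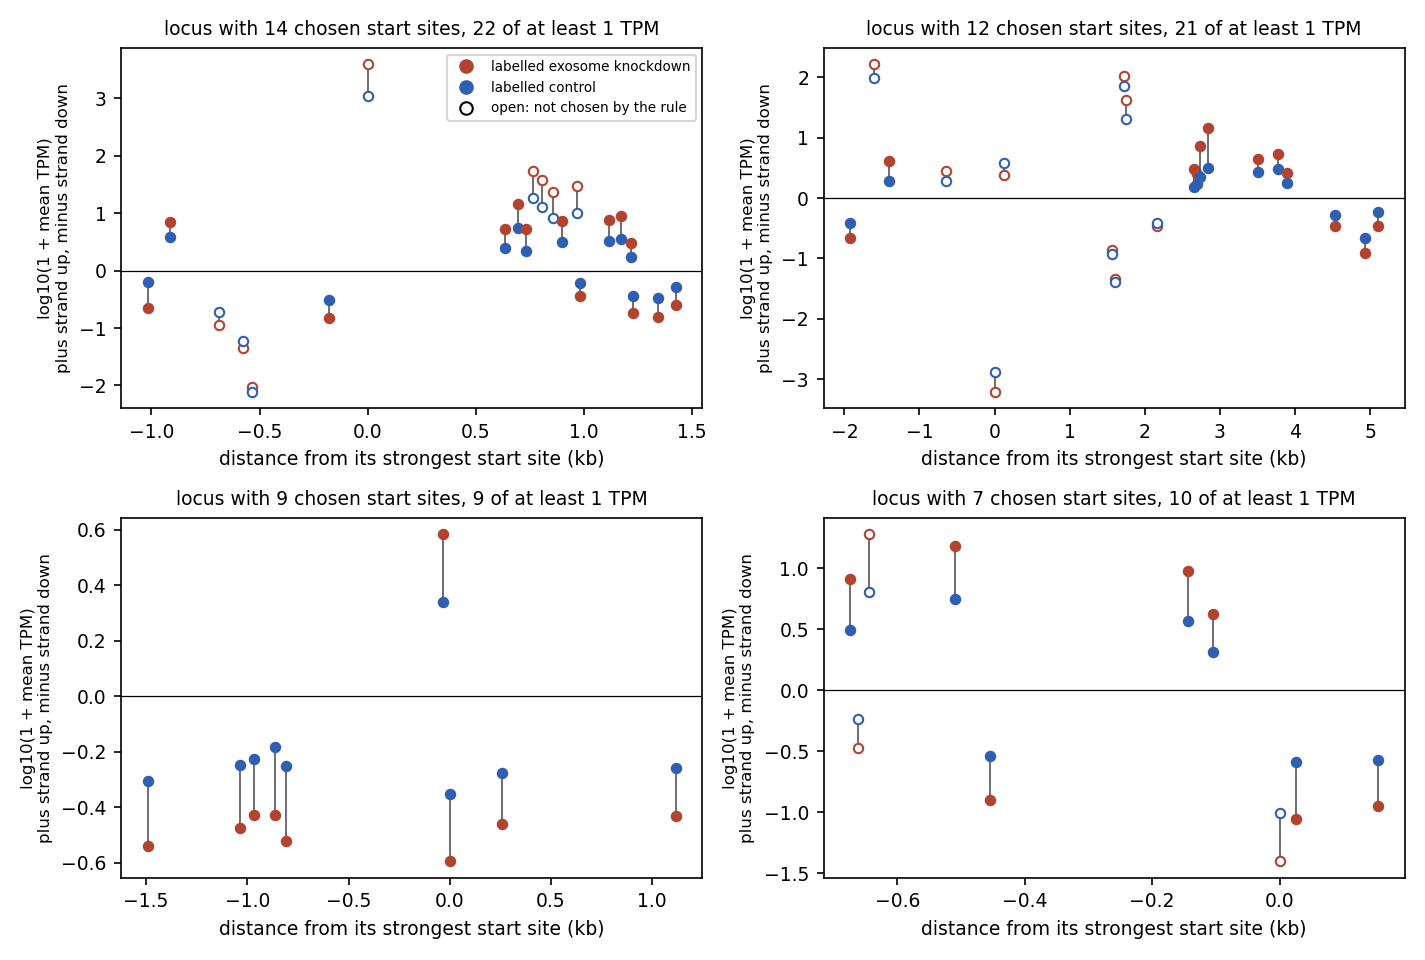
Start sites of at least 1 mean TPM in 4 loci, drawn by their distance in kb from the strongest start site of the locus; the vertical axis is log10(1 + mean TPM), upwards for the plus and downwards for the minus strand. Red points are means of the 4 libraries labelled exosome knockdown and blue points of the 4 labelled control, joined by a line for each start site, with filled points for sites chosen by the rule and open points for the rest. In the first locus the strongest site reached 3942 against 1082 TPM, and 19 of 22 sites met the criteria.

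A compact group with large ratios lay at 23751389-23751548, within a locus of 6 members. It was picked after its values were seen. Here 5 start sites on both strands had ratios between 7.93 and 16.9. On the plus strand, 23751389-23751408 had 13.5, 12.2, 15.2 and 13.0 TPM against 1.08, 0.867, 0.345 and 1.06 TPM, and 23751452-23751455 had 9.29, 9.38, 12.6 and 6.72 TPM against 0.585, 0.525, 0.366 and 0.869 TPM. On the minus strand, 23751534-23751541 had 3.74, 4.14, 5.90 and 2.87 TPM against 0.247, 0.342, 0.151 and 0.245 TPM. Replicate 3 was the highest library labelled exosome knockdown at all 5 and the lowest labelled control at all 5. The strongest start site of the locus, on the plus strand at 23755441-23755495, went the other way, with 17.4 ± 3.56 against 47.7 ± 6.82 TPM (SD, n = 4). Summed over the locus the plus strand came to 54.1, 57.3, 68.1 and 57.9 TPM against 56.8, 62.1, 57.3 and 45.8 TPM, and these sums overlapped between the groups.

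Weak start sites near the members had ratios in the same direction. Those of 0.2 to under 1 TPM did not enter the rule, but they come from the same libraries and the same contrast, so their ratios are given without a test. On the same strand their median log2 ratio was 1.52 within 100 bp of the nearest member (175 start sites), 1.099 from 100 to 500 bp, 0.82 to 1000 bp, 0.53 to 2000 bp and 0.24 to 5000 bp, and -0.25 from 10000 to 50000 bp. On the opposite strand it was 1.08 within 100 bp (127 start sites), 0.97 from 100 to 500 bp and 0.28 from 2000 to 5000 bp. All 13110 such weak start sites of the arm had a median of -0.07. The ratio thus declined with distance on both strands and lay below the median of the arm from 10000 bp on. Of the weak start sites within 100 bp on the same strand, 53.7% met the same criteria of ratio and no overlap, where 7.94% of all weak start sites on the arm did.

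Around the other moderate start sites the weak ones within 100 bp had a median log2 ratio of -0.18 on the same strand and -0.36 on the opposite strand. Around the 922 sites that met the opposite criteria it was -2.74 and -2.20. Strong start sites of at least 10 TPM behaved less evenly near the members, with a median log2 ratio of 1.47 within 100 bp on the same strand (31 start sites) and 0.34 on the opposite strand (21 start sites), where all 1764 strong start sites of the arm had 0.21. Of those on the same strand within 100 bp, 21 met the criteria, where 12.5% of all strong start sites on the arm did. On the opposite strand it was 2 of 21, and 3 met the opposite criteria. From 100 to 500 bp the strands were more alike. There the median log2 ratio was 0.72 on the opposite strand, where 24 of 64 met the criteria and 0% the opposite ones. On the same strand it was 0.79, where 27 of 94 met the criteria and 0% the opposite ones.

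**Figure D5:**
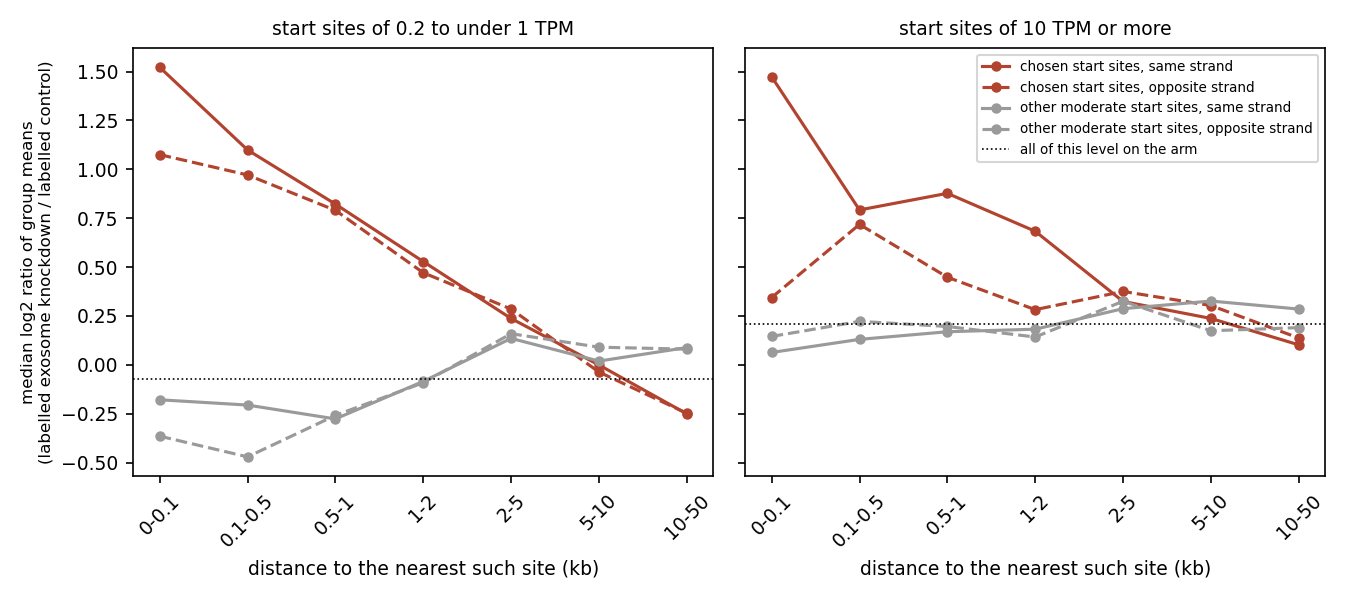
Median log2 ratio of group means (libraries labelled exosome knockdown over libraries labelled control) of weak (left, 0.2 to under 1 TPM) and strong (right, 10 TPM or more) start sites of the arm, by distance in kb to the nearest chosen (red) or other moderate (grey) start site, on the same (solid) or the opposite strand (dashed). Dotted lines are the medians of all start sites of that level on the arm, -0.07 and 0.21. Weak sites near chosen ones fall from 1.52 to -0.25 with distance on the same strand.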

How the data were processed

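The deposited files give raw counts of CAGE tag starts per position and strand, which the authors made from trimmed reads. The alignment was to dm3, with Bowtie 1.1.1 per the labels' processing notes; reads that differed from the genome at over 2 bases or had several matches were discarded. Start sites in repeats are therefore missed or undercounted, and no removal of PCR duplicates is named, so that tags are not independent molecules. The labels say that libraries were sequenced in 2 rounds, and how the runs were joined is not given in the sources used here.

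Tags were clustered as described in the report with Python 3.11.15, and TPM is a count per 1000000 tags of the library. Counts of the 23325 start sites of at least 1 mean TPM in the genome were fitted with edgeR 4.0.16 (TMM factors, quasi-likelihood test, group as the only term, all 8 libraries), with Benjamini-Hochberg adjustment over all of them. On simulated counts of these start sites with 200 changed 2-fold or 3-fold, the fit found 165 and made 11 false calls. The simulated counts were independent between sites, had 1 fixed dispersion and held far fewer changed sites than were called in the data. These rates therefore need not hold for the real counts. Shapes were compared with exact permutation tests over libraries, two-sided. The share of tags at the dominant position used the position with the highest mean share over the 8 library profiles.

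Samples were grouped by their titles. Whether replicate numbers pair the libraries was checked on the deviations from the group means. Same-numbered libraries correlated at 0.1004, 0.2048, 0.2711 and 0.4498, each above 0.1. Differently numbered libraries reached up to 0.1468, above the value of replicates 1, so the pairing is weak for these. The numbers, which come from the titles, were taken as a pairing. A fit with the replicate number as a block was run beside the unblocked one. Start sites were named by a rule: the 6 largest ratios, the 4 highest levels, those nearest each threshold, 3 with the strongest divergent and 3 with the strongest same-strand neighbour, the fullest 20 kb window, extremes of shape, and the 3 with the widest spread among the libraries labelled exosome knockdown. Of the members of that window the text gives a selection in full. Of the sharpest sites, 78 tie at a single position, and ties were ordered by level. Members, lists and tests were chosen with earlier results of these data known. Loci and distance bins were chosen after the data were seen. The study calls the replicates biological. The labels do not name separate cultures, and the p-values measure the spread between these libraries. No sequence is shown, since no genome of the files' build was used here.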

Additional observations from a re-analysis of the deposited data

Results flagged for a closer look

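Among 130 groups of 4 libraries behind values of the report (named start sites, their neighbours, the strand sums of the 6 fullest loci and the shape measures), 7 had a library standing far from the other 3 by Dixon's gap test. Chance alone gives about 1 in 20 such groups. Replicate 4 labelled exosome knockdown stood apart at 16841669-16841676 (14.3 TPM) and at 11289243 (9.92 TPM). Replicate 3 labelled exosome knockdown was low at 16986811-16986812, with 1241 TPM. Replicate 4 labelled control was high at 5226939-5226943 (994 TPM), 2903038-2903130 (1.85 TPM) and 18947126-18947317 (1.60 TPM). Replicate 3 labelled control was high for the minus-strand tags of the locus at 27569724-27576770, with 1233 TPM. The first 2 were among the start sites named for the widest spread in that group, so the rule favoured them, and 7 of 130 is close to the rate that chance gives.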

How the results depend on the processing

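The list of 424 depended most on its own limits: a ratio of at least 3 left 188 start sites, and one of at least 1.5 gave 635. Merging within 10 bp gave 536, and 340 of the 424 overlapped a start site of that list. No trimming gave 369, and 280 of the 424 overlapped a start site of that list. Leaving out 1 library gave between 408 and 548 members, the most without replicate 4 labelled control, and a median log2 ratio between 1.45 and 1.57 (1.502 with all 8). The counts over the genome were 5417 higher and 6879 lower of 23325 tested. They became 10951 and 21590 of 80324 with a filter at 0.2 TPM. With no filter beyond 10 tags in all they were 14745 and 47190 of 253238. Without 1 library they ranged from 4217 to 5380 and from 5923 to 7113, of 22645 to 23963 tested. Members were chosen anew in each of these runs, and the fit called between 403 of 408 and 542 of 548. The run without replicate 1 labelled control called 447 of 463. With the replicate block, the fit called 5847 higher and 7244 lower and again 424 members, and the block changed none of the calls made on members. Over the other moderate start sites, the share at the dominant position had an exact p of 0.0286 without the block and 0.13 with it. As 4 pairs cannot go below 0.13, the blocked test cannot decide there. DESeq2 called 5887 and 7143, and all 424.

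The difference in the share at the dominant position, -0.18 percentage points, was 0.22 with the median over members, 0.38 with the dominant position from pooled tags, 0.41 for sites of at least 50 tags and -0.65 after thinning to equal tags (exact p between 0.429 and 0.857). It lay between -0.50 and 0.28 without 1 library, which was not tested. The replicate block gave an exact p of 0.875, and 4 pairs cannot go below 0.13. The cause of the changes of sign was not tested. The median centre of the tags was 0 bp in every setting that kept the median and all members. It was also 0 bp in every library over the other moderate start sites, so this median could hardly show a shift. Depth limits the lowest values: in the libraries labelled control, 0.1 TPM is about 4 tags, and 1 start site of the list had a library at 0.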
